A study of Mus musculus with 6 samples.

Results

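The enzymes and receptors of the prostaglandin pathway were followed in cultured mouse mammary tumour cells given a precursor of the microRNA miR-16. Members were taken by gene name, as every non-control probe on the array named Ptgs1, Ptgs2, Ptges, Ptgis, Ptgds, Hpgd, Ptger1, Ptger2, Ptger3 or Ptger4. These 10 genes, of 28786 gene names on the array, had 16 probes and 25 spots. The cells were primary cultures of C4HD, a hormone-dependent ductal tumour of BALB/c females. It first grew in mice under the progestin medroxyprogesterone acetate (MPA) and is kept by transplantation into mice that carry a 40 mg MPA depot. The preparations were enriched for epithelial cells by repeated sedimentation and plated in medium with 5% steroid-stripped serum. In 1 group 3 cultures received 30 nM pre-miR-16 for 48 h, and in the other 3 cultures received 30 nM pre-miR-Control, a scrambled precursor, for the same time with the same reagent. The series text calls the cultures of each group biological replicates.

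Prostaglandins are lipid signals made from arachidonic acid, a fatty acid that phospholipases free from membranes. The cyclooxygenases Ptgs1 (COX-1) and Ptgs2 (COX-2) turn it into prostaglandin H2, and terminal synthases then make prostaglandin E2 (Ptges), prostacyclin (Ptgis) or prostaglandin D2 (Ptgds). Hpgd starts the breakdown of prostaglandin E2, and Ptger1 to Ptger4 are the surface receptors that bind it. In mammary tumours Ptgs2 is the best studied of these genes, since it is induced by growth factors and inflammation, while Ptgs1 is usually expressed at a steadier level.

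Each culture was measured on a single-colour Agilent array, and no spot was saturated. Between 57.2% and 64.0% of spots per array were well above background by the scanner software. The level of a gene below is the log2 of its processed signal minus the 75th percentile of its array, so a level of 0 is a signal at that percentile. The percentile itself lay between 625.8 and 910.5 scanner units. Among all 16702 genes tested, the adjusted p (limma, Benjamini-Hochberg) was under 0.05 for 2664 that rose with pre-miR-16 and for 5533 that fell. When the arrays were scaled on spike-in probes, RNAs added in known amounts, these counts were 3672 (22%) and 1041, since the median change of all genes moved from -0.20 to 0.18. Small falls therefore depended on the scaling.

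The microRNA that the precursor delivers is shown first, because it is what differed between the groups by design. Mature mmu-miR-16-5p, from RefSeq, has 22 bases, and its seed (bases 2 to 8), which pairs with target RNAs, is in capitals:
mmu-miR-16-5p: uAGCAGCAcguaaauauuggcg
In GRCm38.p6 this sequence is encoded on chromosome 3 at 69009918 to 69009939 (plus strand) and on chromosome 14 at 61631936 to 61631957 (minus strand). The DNA letters that pair with the seed, TGCTGCT, were in 0 of the 16 member probes, each 60 bases long, and in 224 of all 41174 probes (0.544%). This says only that the letters are not inside the probes, since whole transcripts were not searched.

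The start regions of both cyclooxygenase genes, whose changes are set side by side below, are shown with that of Ptges, whose groups overlapped. Each window runs from 250 bases before the RefSeq start to 30 bases after it in GRCm38.p6, with motif matches in capitals. The Ptgs1 window is chr2:36230176-36230455 (plus strand), the Ptgs2 window is chr1:150099781-150100060 (plus strand) and the Ptges window is chr2:30903268-30903547 (minus strand).
Ptgs1: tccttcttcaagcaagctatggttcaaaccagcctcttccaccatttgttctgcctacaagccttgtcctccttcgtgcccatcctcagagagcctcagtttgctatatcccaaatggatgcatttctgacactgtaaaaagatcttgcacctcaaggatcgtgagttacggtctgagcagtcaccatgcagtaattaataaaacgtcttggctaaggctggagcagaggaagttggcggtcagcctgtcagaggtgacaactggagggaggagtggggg
Ptgs2: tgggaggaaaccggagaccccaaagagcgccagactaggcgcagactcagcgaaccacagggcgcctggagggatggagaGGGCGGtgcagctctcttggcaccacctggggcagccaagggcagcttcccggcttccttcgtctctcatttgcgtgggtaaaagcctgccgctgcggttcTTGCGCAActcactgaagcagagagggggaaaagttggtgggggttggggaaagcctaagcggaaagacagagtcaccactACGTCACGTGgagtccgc
Ptges: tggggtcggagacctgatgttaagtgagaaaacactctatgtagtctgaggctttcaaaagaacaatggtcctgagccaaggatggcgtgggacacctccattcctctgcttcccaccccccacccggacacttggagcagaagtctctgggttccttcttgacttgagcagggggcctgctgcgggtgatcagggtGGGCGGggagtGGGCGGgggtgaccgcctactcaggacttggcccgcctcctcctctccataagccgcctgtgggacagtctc
Motifs were searched on both strands and were chosen with these sequences in view. They were ACGTCA, the core of the cAMP response element, CACGTG, known as an E-box, and TTGCGCAA, which C/EBP proteins bind. The GC box was searched for as GGGCGG, and the site of TATA-binding protein was searched for as TATAAA. The Ptgs2 window held ACGTCA at bases 13 to 18 after the start and CACGTG at 17 to 22, so that the pair overlap, and TTGCGCAA at -69 to -62. It also held GGGCGG at -170 to -165. The Ptges window held GGGCGG at -53 to -48 and at -42 to -37, and the Ptgs1 window held none of the motifs. Of 32851 mouse windows of this length, 7.26% held ACGTCA, 6.79% CACGTG, 0.18% TTGCGCAA, 34.7% GGGCGG and 13.1% TATAAA. GC content was 49.6% for Ptgs1, 61.4% for Ptgs2 and 59.6% for Ptges, against a median of 52.5%. A match is a description of the letters and not a site. Among the 10 genes 8 had such a window, and Ptgis and Ptger1 had none in the table.

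In RNA from whole cultures the processed signal was about 14.5-fold higher for Ptgs1 and 9.65-fold higher for Ptgis with pre-miR-16. With normexp, another background correction, their log2 changes were 3.16 and 2.54. Ptgs2 rose less, and Ptger2 signal was above background with pre-miR-16 only. Of the 10 genes 6 could be tested: 4 rose, 0 fell, and Ptges and Ptgds did not pass the test. Over all genes tested 16% rose and 33.1% fell. The same 4 members were higher on every pre-miR-16 array than on any control array, which held for 19% of all genes. Among these, Ptger2 passed the filter only through pre-miR-16 and so had to differ. Among the 6 tested members the fit before adjustment at p under 0.05 also gave none that fell. The filter had left out Hpgd, which read lower with pre-miR-16 (change -2.21 with no filter, limma's adjusted p = 0.0133). None of its pre-miR-16 readings was well above background. Hpgd, Ptger1, Ptger3 and Ptger4 were too dim for the test.

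**Figure D1:**
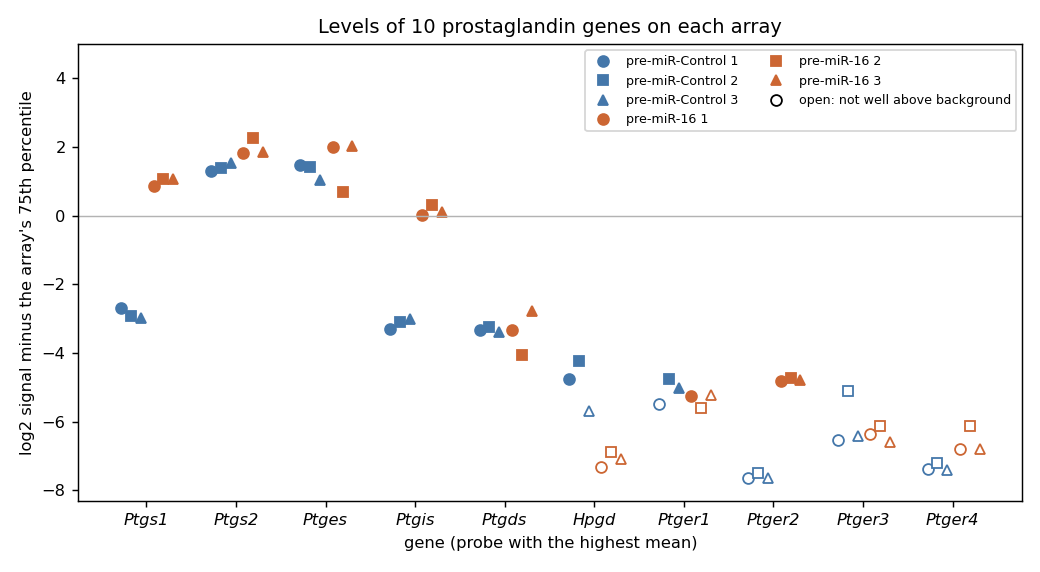
Levels (log2 signal minus the array's 75th percentile) of the 10 genes on the 6 arrays, 1 point per array, for the probe with the highest mean of each gene. Blue marks pre-miR-Control, orange pre-miR-16, and open points were not well above background. Ptgs1 and Ptgis show a wide gap between the groups, Ptgs2 a narrow one, and Ptges and Ptgds overlap.

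Ptgs1, the cyclooxygenase usually called constitutive, had the largest rise among the 5 members measured in both groups. Its probe lies at chr2:36257684-36257743 (mm7, plus strand). The processed signal was 96.8, 85.7 and 88.7 units in control cultures 1 to 3 and 1346, 1533 and 1921 units in pre-miR-16 cultures 1 to 3. All the controls lay far below all the pre-miR-16 cultures, and the spread within each group was small beside the gap. The level went from -2.86 ± 0.15 to 1.00 ± 0.12 (SD, n = 3), a change of 3.86 ± 0.12 (SE), with limma's adjusted p = 1.189e-05. The changes within the slides that held both groups were 3.55 and 4.01. Background correction with normexp gave 3.16, and the call held. Of all genes tested, 4.36% were called and at least 8-fold higher.

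Ptgs2, the inducible cyclooxygenase, was already bright in control cultures and rose much less. The tested probe lies at chr1:150032900-150032959 (mm7, plus strand). Its signal was 1532, 1710 and 2021 units in the controls and 2624, 3549 and 3326 units with pre-miR-16. The groups did not overlap, and the levels were 1.41 ± 0.12 and 1.99 ± 0.25 (SD, n = 3). The change was 0.58 ± 0.15 (SE), or 1.49-fold, with limma's adjusted p = 0.0201, and was 0.53 and 0.80 within the shared slides. The call was lost without control culture 1 (change 0.52, adjusted p = 0.0626) and without control culture 2 (0.57, adjusted p = 0.0659), while spike-in scaling raised the change to 0.96. It was also lost without the filter on dim probes (adjusted p = 0.0575).

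A second Ptgs2 probe, at chr1:150033228-150033287 (mm7), was printed 10 times on each array and so shows how well a single culture was measured. Median signals of its spots were 1652, 1434 and 1677 units in the controls and 2237, 2974 and 3161 units with pre-miR-16. The SD among spots of an array was 0.0136 to 0.029 on the log2 scale, far below the spread among cultures of a group. The change at this probe was 0.53 ± 0.14 (SE), with limma's adjusted p = 0.0252 over all probes, of which 15.2% rose.

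**Figure D2:**
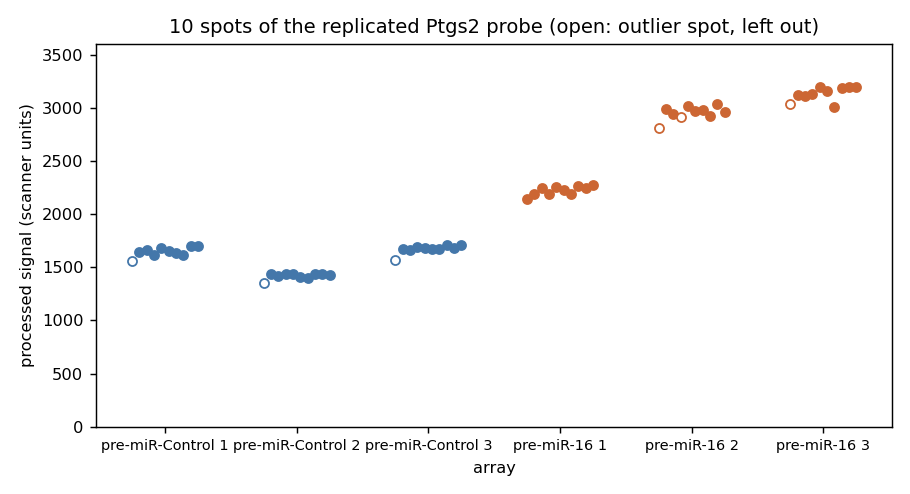
Processed signal (scanner units) of the 10 spots of the replicated Ptgs2 probe on each of the 6 arrays, with open points for spots that the scanner software called outliers. Spots of an array lie close together, at medians from 1434 to 1677 units in the controls and from 2237 to 3161 units with pre-miR-16.

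Both cyclooxygenase genes rose, and the gap between them narrowed. The Ptgs2 level minus the Ptgs1 level was 3.98, 4.32 and 4.51 in the controls and 0.96, 1.21 and 0.79 with pre-miR-16. Since probes differ in how brightly they bind, only the shift of this difference can be read, and not its size within a culture. The shift was -3.28, with p = 0.1 by an exact two-sided permutation test, the smallest p that 3 cultures against 3 allow. With normexp it was -2.59. The pairs Ptgs2 with Hpgd and Ptger4 with Ptger2 were not compared, because Hpgd and Ptger4 were not well above background.

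Ptgis, which makes prostacyclin, rose nearly as much as Ptgs1. Its probe lies at chr2:166947459-166947518 (mm7, minus strand). The signal was 64.2, 76.7 and 86.3 units in the controls and 752.5, 912.5 and 974.5 units with pre-miR-16, with no overlap. The level went from -3.13 ± 0.14 to 0.14 ± 0.15 (SD, n = 3), a change of 3.27 ± 0.12 (SE), with limma's adjusted p = 1.441e-05. It was 3.30 and 3.36 within the shared slides, and 2.54 with normexp.

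Ptges, the inducible prostaglandin E2 synthase, gave a mixed picture. Its probe lies at chr2:30899629-30899688 (mm7, minus strand). The signal was 1730, 1742 and 1422 units in the controls and 2969, 1180 and 3689 units with pre-miR-16. Pre-miR-16 cultures 1 and 3 were above every control and culture 2 was below every control. The change was 0.26 ± 0.38 (SE), with limma's adjusted p = 0.594. Within the shared slides it was 0.53 and -0.54. The change was -0.08 with slide as a block, a fit to which pre-miR-16 culture 3, alone on its slide, adds nothing. Without pre-miR-16 culture 2 it was 0.70, with an adjusted p of 0.0147, so that culture decides the call. In the deposited series matrix the low Ptges value stands in the column of pre-miR-16 replicate 1 (10.12, against 11.38 and 11.37 log2 units), because the columns of replicates 1 and 2 there follow each other's scanner file.

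Ptgds, which makes prostaglandin D2, was dim but measurable. Its probe spans 532 bases of the genome at chr2:25474633-25475164 (mm7, minus strand). The signal was 62.7, 68.5 and 66.7 units in the controls and 74.2, 43.9 and 132.2 units with pre-miR-16. The controls were tight and the pre-miR-16 cultures lay on both sides of them, with culture 2 again the lowest. The change was -0.07 ± 0.31 (SE), with limma's adjusted p = 0.858, and its sign turned under spike-in scaling (0.31), array weights (0.07) and without pre-miR-16 culture 2 (0.26). Within the shared slides it was -0.00497 and -0.75.

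Hpgd, which oxidises prostaglandin E2 and so ends its action, was near background. Its brightest probe, at chr8:54721339-54721398 (mm7, plus strand), read 23.3, 34.6 and 13.6 units in the controls and 4.69, 6.19 and 6.76 units with pre-miR-16. It was well above background on control cultures 1 and 2 only, so the gene did not enter the test. With no filter the fit gave -2.21, with limma's adjusted p = 0.0133, but both rest on pre-miR-16 readings that were not well above background. The gene's other 2 probes were well above background on no array. Their mean levels were -5.52 and -7.55 in the controls and, in the same order, -6.95 and -7.54 with pre-miR-16.

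Among the receptors for prostaglandin E2 only Ptger2, which raises cAMP inside the cell, could be tested. Its probe, at chr14:40319852-40319911 (mm7, plus strand), read 3.12, 3.60 and 3.50 units in the controls, none of them well above background. With pre-miR-16 it read 26.6, 27.8 and 33.2 units, all well above background. The gene entered the test only through the group where it is high, so that a difference was built in, and limma's adjusted p (1.189e-05) and the lack of overlap rest on control readings below background. By the processed signal, and against the lowest signal well above background on the control arrays, Ptger2 was at least 1.48-fold higher. The measured means were -7.60 and -4.77. The measured gap depended strongly on how background was taken off: it was 2.83 ± 0.09 (SE) for the processed signal, 0.27 with normexp (adjusted p = 0.0331) and 0.47 in the series matrix.

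The other 3 receptor genes gave no level in either group as a whole. Ptger4, the second receptor of the family that raises cAMP, read 3.78, 4.41 and 4.10 units in the controls and 6.68, 10.5 and 8.18 units with pre-miR-16 at its brighter probe. None of its readings was well above background, and the fit without the filter gave 0.75, with limma's adjusted p = 0.0600. Ptger1, which signals through calcium, read 14.1, 24.4 and 21.6 units in the controls and 19.7, 15.3 and 24.5 units with pre-miR-16, and the groups overlapped. It was well above background in control cultures 2 and 3 and in pre-miR-16 culture 1. Ptger3, which lowers cAMP, was well above background on no array at any of its 3 probes.

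**Figure D3:**
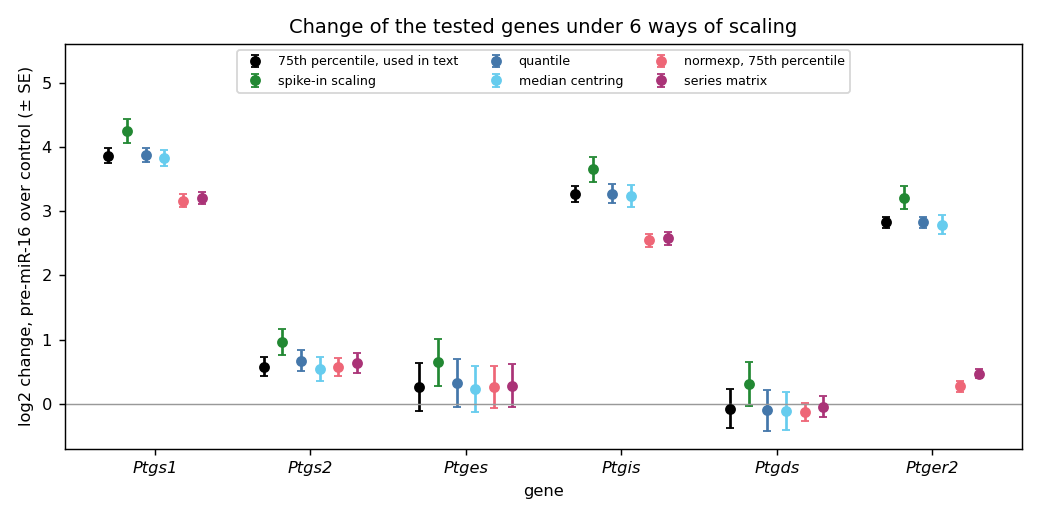
Change (log2, pre-miR-16 over control, ± SE) of the 6 tested genes under 6 ways of correcting and scaling the signal, 1 colour for each. Ptgs1, Ptgs2, Ptgis and Ptger2 stay above 0 under all of them, Ptger2 falls to 0.27 with normexp, and Ptgds lies on both sides of 0.

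Direction held for Ptgs1, Ptgs2 and Ptgis under every scaling tried, spike-ins included. It also held for Ptger2, for which the filter had built in a difference. The median change of the 6 tested members was 1.70, against -0.20 for all genes tested, and was 0.57 with Ptger2 put at its bound. This median covers only the members that passed the filter.

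The genes whose profile over the 6 arrays was most like a called member with at least a 2-fold change were found by the root mean square difference of centred log2 levels. For Ptgs1 they were Adcy7, an adenylyl cyclase (0.0649), and Vldlr, a lipoprotein receptor (0.0866). For Ptgis they were Ttc7b (0.0727) and Cspg2, the proteoglycan versican (0.0807), which was not well above background in the controls. Adcy7, Vldlr and Ttc7b, measured in both groups, rose by 3.14 to 3.76. Ptger2 is left out, since its control readings were below background. Ptges, for which the likeness was looked up after its values were seen, was nearest to Mcm6, a part of the DNA replication helicase (0.103). Mcm6 levels were 3.15, 3.098 and 2.98 in the controls and 3.85, 2.39 and 3.86 with pre-miR-16, so the same culture was low.

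Of 82 further pathway genes 63 were tested, and 21 rose, 18 fell and 24 did not pass, with a median change of 0.18. The rises include Pla2g5, Pla2g2e, Alox5 and Ltc4s, which entered the test only through pre-miR-16, so that a difference was built in. Among the falls, Pla2g4c entered the test only through the controls, where it is high. Under spike-in scaling 27 rose and 3 fell, Pla2g4c among the 3, so that most of the falls were not called with that scaling. Median centring and quantile normalization each left 15 that fell. Over all genes tested 16% rose and 33.1% fell, so the share of pathway genes that fell was near the background, and the lists below are described by their own counts.

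Upstream, 12 of 19 genes listed under arachidonate release, not all of which act on arachidonate itself, were tested, and 5 rose and 5 fell. Among the falls, Pla2g4c passed the filter only through the controls. Mgll, which frees arachidonic acid through the breakdown of 2-arachidonoylglycerol, rose by 3.44 ± 0.13 (SE; limma's adjusted p = 1.526e-05). Pla2g7, a phospholipase of platelet-activating factor, rose by 3.57 ± 0.24 (2.21 with normexp). Pla2g5 and Pla2g2e, secreted phospholipases not well above background in the controls, were at least 3.34-fold and 2.04-fold higher by the processed signal. They changed by 0.66 and 0.37 (log2) with normexp. Both entered the test only through pre-miR-16, so that a difference was built in. Pla2g4a, the cytosolic phospholipase that usually feeds the cyclooxygenases, differed by 0.20 ± 0.11 (SE), with limma's adjusted p = 0.181, and did not pass the test. With spike-in scaling its difference was 0.58, with limma's adjusted p = 0.0482.

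Beside Ptges, Ptgis and Ptgds, 8 of 10 other synthases were tested, and 3 rose and 3 fell. Tbxas1, the thromboxane synthase, rose by 3.52 ± 0.36 (SE; limma's adjusted p = 7.407e-04) and by 2.21 with normexp. The 2 other prostaglandin E2 synthases went opposite ways: Ptges2 rose by 0.66 and Ptges3 fell by 0.64, and the fall was not called with spike-in scaling (-0.26) or with slide as a block (adjusted p = 0.0590). Cbr3, a carbonyl reductase, rose by 0.61, and Prxl2b, a prostaglandin F2 synthase, fell by 0.76 (-0.38 and not called with spike-in scaling). Hpgds, the prostaglandin D2 synthase of blood cells, was not tested, since no probe of it passed the filter.

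Of the genes listed as other prostanoid receptors 4 of 6 were tested. The list holds Ptgfrn, which regulates the prostaglandin F2 receptor and is not itself a prostanoid receptor. Tbxa2r, the thromboxane receptor, rose by 2.19 ± 0.18 (SE; limma's adjusted p = 3.087e-04; 1.16 with normexp), and Ptgir, the prostacyclin receptor, fell by 0.54. That fall was not called with spike-in scaling (-0.16) or with slide as a block (adjusted p = 0.124). Of transport and breakdown genes 5 of 5 were tested, and 1 rose and 2 fell. Ptgr1, a reductase that inactivates prostaglandins after Hpgd has acted, fell by 1.66 ± 0.20 (SE; limma's adjusted p = 0.00125), and the change was -1.28 with spike-in scaling. Ptgr2 fell by 0.31, and Abcc4, which exports prostaglandins, rose by 0.40. A block for the slide ended both calls (adjusted p = 0.1199 for Ptgr2 and 0.166 for Abcc4), and Ptgr2 was at 0.08 and not called with spike-in scaling. Slco2a1, which takes them up, had levels of 5.85, 5.71 and 6.03 in the controls and 6.35, 5.65 and 6.42 with pre-miR-16 and did not pass the test.

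The list of the lipoxygenase branch, which uses the same fatty acid to make leukotrienes and other products, had 10 of 16 genes tested. Of these 6 rose and 0 fell, with a median of 1.33 (0.68 with normexp). No further gene of the list had a fall at an unadjusted p under 0.05. The rises include Ephx2, an epoxide hydrolase and not a lipoxygenase, which rose by 1.17 (1.06 with normexp). Alox5ap, the protein that presents arachidonate to 5-lipoxygenase, rose by 3.61 ± 0.15 (SE; limma's adjusted p = 1.684e-05; 2.24 with normexp). By the processed signal Alox5, the lipoxygenase itself, was at least 9.37-fold higher and Ltc4s, the leukotriene C4 synthase, at least 5.28-fold. Both were not well above background in the controls and entered the test only through pre-miR-16, so that their differences were built in. With normexp their log2 changes were 1.48 and 0.90. Alox12 rose by 1.51, and by 0.54 with normexp.

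Of 14 regulators of Ptgs2 transcription and mRNA 4 rose and 5 fell. Celf2, an RNA-binding protein that holds back Ptgs2 translation, rose by 3.32 ± 0.11 (SE; limma's adjusted p = 1.189e-05; 2.21 with normexp), and Cebpd, a C/EBP factor, by 1.77 ± 0.23. Zfp36l1, which promotes decay of AU-rich mRNAs, fell by 1.54 ± 0.21. Zfp36 went the other way and rose by 1.25 (limma's adjusted p = 0.0162, and 0.0688 with slide as a block). Elavl1 (HuR), which stabilises AU-rich mRNAs, fell by 0.63 (-0.25 and not called with spike-in scaling). Of the genes that cAMP, the messenger of Ptger2, can induce, 10 of 12 were tested, and 1 rose and 2 fell. Pde4b, a phosphodiesterase that breaks cAMP down, rose by 3.88 ± 0.59. Its levels were -1.59, -1.95 and -1.52 in the controls and 3.03, 0.75 and 2.80 with pre-miR-16, where culture 2 was again the lowest. Crem fell by 0.82 and Fosl2 by 0.45, and neither was called with spike-in scaling (-0.44 and -0.067). Fosl2 was also not called with slide as a block (adjusted p = 0.0720).

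**Figure D4:**
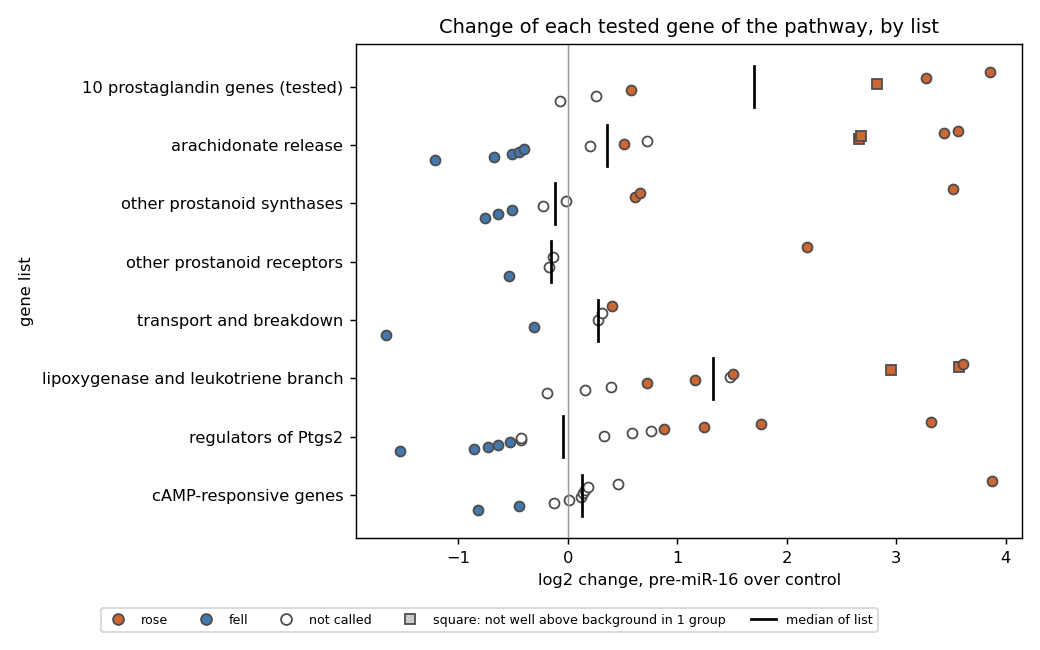
Change (log2, pre-miR-16 over control) of every tested gene by list, 1 point per gene, coloured where the adjusted p was under 0.05. Squares were not well above background in 1 group. Bars are medians, from -0.16 for the list of other receptors to 1.33 for the lipoxygenase list and 1.70 for the tested members.

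Most markers of macrophages and of fibroblasts, cell types that make prostanoids, also rose. Their part in the results was not tested. Of 12 macrophage and leukocyte markers, all tested, 11 rose and Csf1r did not pass. Their summed level, in multiples of the 75th percentile, was 16.1 to 21.8 in the controls and 213 to 260 with pre-miR-16, and without its brightest probe, Lyz2, 11.5 to 12.9 and 35.9 to 48.3. Ptprc and Mrc1 were not well above background in any control. These markers and Adgre1, C1qa, C1qc, Fcgr1 and Itgam entered the test only through pre-miR-16, where they are high. Of 10 fibroblast markers 9 rose, of which Fap and Lum entered the test only through pre-miR-16, and Dcn did not pass. The median change was 3.81, and the sum was 392 to 461 against 575 to 716. Such sums are carried by bright probes: Dcn made up 95.9% to 96.3% of this one in the controls, and without it the sum was 15.9 to 17.2 against 239 to 314. Of 10 luminal epithelial markers 8 fell, and the sum was 1000 to 1140 against 597 to 630. With spike-in scaling 2 fell, and with slide as a block Cldn7, Krt19 and Cldn4 were not called. Krt8 and Krt18, which define this epithelium, had control levels of 8.02 ± 0.14 and 8.41 ± 0.12 (SD, n = 3).

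Platelets, endothelium and mast cells are further prostanoid sources. Of 6 platelet markers 4 were tested. Pf4 and Ppbp rose and Itga2b fell by 1.14. Gp1bb did not pass (0.41, limma's adjusted p = 0.221), but was called with spike-in scaling (0.79, adjusted p = 0.0385). Gp9 and Gp6 were not tested. The sum was 0.393 to 0.601 against 15.9 to 22.0, and without Pf4 it was 0.322 to 0.376 against 0.479 to 0.702. Of 8 endothelial markers 2 were tested (Vwf and Esam), and neither passed, with sums of 14.8 to 17.1 and 10.2 to 19.9, of which Vwf made up at least 97.9%. Pecam1 and Cdh5 were not among the genes tested. Of 7 mast cell markers only Fcer1a was tested. It fell, but entered the test only through the controls, where it is high. Cpa3 and Kit were not tested. In RNA from whole cultures, more cells of a type and more RNA per cell cannot be told apart.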

How the data were processed

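The values were made from 6 single-colour Agilent arrays, 3 per group, grouped by sample title. Per the file headers, the authors read the scans with Agilent Feature Extraction 9.5.3.1, and the deposited intensity of each spot already had its background subtracted and, where dim, was given a surrogate value. Probe positions are on mm7. The authors' deposited matrix of log2 values (column medians 6.79 to 6.81), with a normalization not stated in the labels or headers, served as an alternative.

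The software was limma 3.58.1 run in R 4.3.3 with the data.table package (1.17.8). Control and outlier spots (74 to 113 per array) were left out, spots of a probe were averaged on the log2 scale, and levels were set relative to the 75th percentile of the array. A probe was used if every array of 1 group or the other, all 3, had at least 0.5 of its spots well above background (23827 of 41174). Genes were named by RefSeq accession (22951 probes), current symbol (6659) or the name in the file (11564). The probe with the highest mean stood for a gene, which gave 16702 genes. Groups were compared with lmFit and eBayes, adjusted by Benjamini and Hochberg, at 0.05. Where no array of a group was well above background, the fold is a bound against the lowest such signal on each array, and holds for the processed signal only. The number of arrays limits the precision.

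On simulated data (16702 genes, 200 changed, no slide effect) the code recovered 64.5% of log2 changes of 1 and 83.9% of changes of 2. It made 11 false calls. Far more genes, 8197, were called in the data, so these rates describe the simulation only. The first replicates of both groups shared slide 1. Controls 2 and 3 shared slide 2 with pre-miR-16 replicate 2, whereas pre-miR-16 replicate 3 was alone on slide 3. With slide as a block that replicate adds nothing to a change, so fewer arrays carry the estimate. Sequences come from RefSeq (GRCm38.p6), and the sequence windows were handled with Python 3.11.15 and pandas 2.3.3. Genes named are all members, up to 4 called genes per pathway list with the smallest p and those that complete a reaction step. Zfp36 was added because it went opposite to Zfp36l1, and Pla2g4c because it passed the filter only through the controls. Ptgfrn and Ephx2 were added because the names of their lists do not describe them. Also named are the 2 genes most like each called member that changed at least 2-fold (not given for Ptger2, below background in the controls). Markers named are defining ones and those that passed the filter only through 1 group. Members and lists were chosen with earlier results of these data known. The alternatives were other background corrections, scalings, filters, probe rules, weights, blocks and thresholds, and each array left out.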

Additional observations from a re-analysis of the deposited data

How the results depend on the processing

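Ptgs1 and Ptgis stayed called under all 23 alternatives (3.16 to 4.24 and 2.54 to 3.65). Ptger2 was called under the 22 that could test it (0.27 to 3.21), and a filter on 4 arrays leaves it out. Its calls are no support, since its control readings were below background and the main filter built in a difference. Ptgs2 kept its direction under 23 (0.44 to 0.96) and its call under 18, with adjusted p from 0.00682 to 0.0659; the thresholds of 0.01 and of 2-fold also end it. Ptgds turned to 0.065 with array weights, 0.31 with spike-ins and 0.26 without pre-miR-16 replicate 2, and Ptges to -0.083 with slide as a block; leaving out each array, Ptgds ran from -0.38 to 0.26. The 8197 called genes (2664 higher, 5533 lower) became 4871 (2988 lower) at 0.01, 2860 (1718 higher, 1142 lower) at 2-fold and 4713 (1041 lower) with spike-ins, where 77.9% of calls were higher, against 32.5%. At 2-fold 60.1% were higher. The pathway genes that fell, 18, became 10, 3, 11 and 3 at 0.01, at 2-fold, with slide as a block and with spike-ins. The Ptgs2 minus Ptgs1 shift was -2.59 with normexp. With no filter 1 member fell (Hpgd). The cause of these moves was not tested.

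Leaving out each array gave 5719 to 9142 called genes (2117 to 3335 higher, 3602 to 5807 lower), 3 to 5 members that rose and 0 that fell, 19 to 28 and 13 to 19 pathway genes, 3 to 6 member probes and a shift of -3.43 to -3.16. The lowest count of lower genes (3602) and of member probes (3, against 5) came without control replicate 2.

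By the numbering of the scans, replicates with the same number did not deviate together (correlations -0.0876, -0.0261 and -0.00284). With so few arrays per group, these values cannot decide whether cultures with the same number belong together. The numbering is also unsettled, because the series matrix and the scans exchange pre-miR-16 replicates 1 and 2. Control 1 with pre-miR-16 2 gave 0.0634, and control 2 with pre-miR-16 1 gave 0.0222. With a replicate block 2341 genes were higher and 4188 lower, 20 pathway genes rose and 15 fell, and 4 members rose.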
